A study of Mus musculus with 3 samples.

Results

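The core autophagy machinery comprises the genes whose products build the autophagosome, and it was examined for HIF1α binding in the embryonic mouse heart. The 34 genes were chosen by name, with earlier results of these data known, out of 21779 nuclear protein-coding genes. They were grouped by step of autophagosome formation. Hearts of wild-type Black-Swiss embryos at E12.5 gave 3 chromatin libraries: 2 HIF1α pulldown replicates, made with a rabbit antibody, and 1 input, which is chromatin that was not immunoprecipitated. The samples were whole hearts, so the cell types in which a site was bound cannot be told apart, and nothing in the labels ties the replicates to separate or shared embryos. The data are a single list of 17289 peaks on mm10, merged by the authors from both pulldowns, with a whole number of 2 to 3315 per peak that is called its score here. The header names 10 columns while each row holds 6, so the header does not name this value (the fifth in a row), and reading it as a score is an inference from its place. A 2-call peak was merged from 2 calls, and 1989 peaks (11.5%) are of this kind. The others are 1-call peaks, and the pulldown behind each of them is not marked. The list holds no values per library, so no result has a replicate error or a replicate test, and the read depth is unknown. Chromatin binding was measured, not expression.

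Autophagy encloses cytoplasm and organelles in a double membrane that fuses with the lysosome. The ULK kinase complex starts the process, the class III PI3-kinase complex marks the growing membrane with the lipid PI3P, and WIPI proteins read that mark. ATG2 moves lipid into the membrane and ATG9 vesicles seed it. A ubiquitin-like conjugation system then attaches ATG8 proteins (the LC3 and GABARAP families) to the membrane, and cargo receptors bind both ATG8 and their cargo. HIF1α is the part of the hypoxia-inducible factor that oxygen controls, and the mitophagy receptor genes Bnip3 and Bnip3l are established targets of it.

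Near a peak means here that the gene, extended by 5 kb at both ends, contains a peak centre. This held for 18 of the 34 genes (52.9%, exact 95% Clopper-Pearson interval 35.1 to 70.2%), and for 32.6% of the 21745 other protein-coding genes. By step, the genes near a peak were 3 of 3 cargo receptor genes, 4 of 6 genes of PI3P reading, lipid transfer and ATG9, 3 of 5 ATG8 genes, 3 of 5 genes of the PI3-kinase complex, 4 of 11 conjugation and ATG4 genes, and 1 of 4 ULK complex genes. No difference between steps was tested, and the steps hold few genes. Peaks within 1 kb of either end were found at 12 genes (35.3%, interval 19.7 to 53.5%), against 16.2% of other genes. Transcription starts were known for 28 of the 34, and at 12 of these 28 (42.9%, interval 24.5 to 62.8%) a start lay within 1 kb of a peak centre, against 16.5% of other genes with a known start.

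At the widest window the genes came close to the background. With a window of 1 kb around the gene the count was again 18 of 34, against 28.3% of other genes, since no further gene was added between 1 and 5 kb. Within 50 kb, 24 of 34 genes (70.6%, interval 52.5 to 84.9%) had a peak, against 64.8% of other genes, and the interval includes that background share. The median distance from the nearer gene end to the nearest peak centre was 13.6 kb, against 28.3 kb for other genes. The autophagy genes are long, with a median of 32.3 kb against 17.2 kb, and a longer gene offers more room for a peak inside it. Among genes above the autophagy median in length, 8 of 17 autophagy genes and 48.6% of 7059 other genes were near a peak, a share near the background. Among shorter genes the figures were 10 of 17 and 24.9% of 14686. At gene ends, the shorter autophagy genes had a peak in 9 of 17 cases against 15.9% of other genes, and the longer ones in 3 of 17 against 16.9%.

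**Figure D1:**
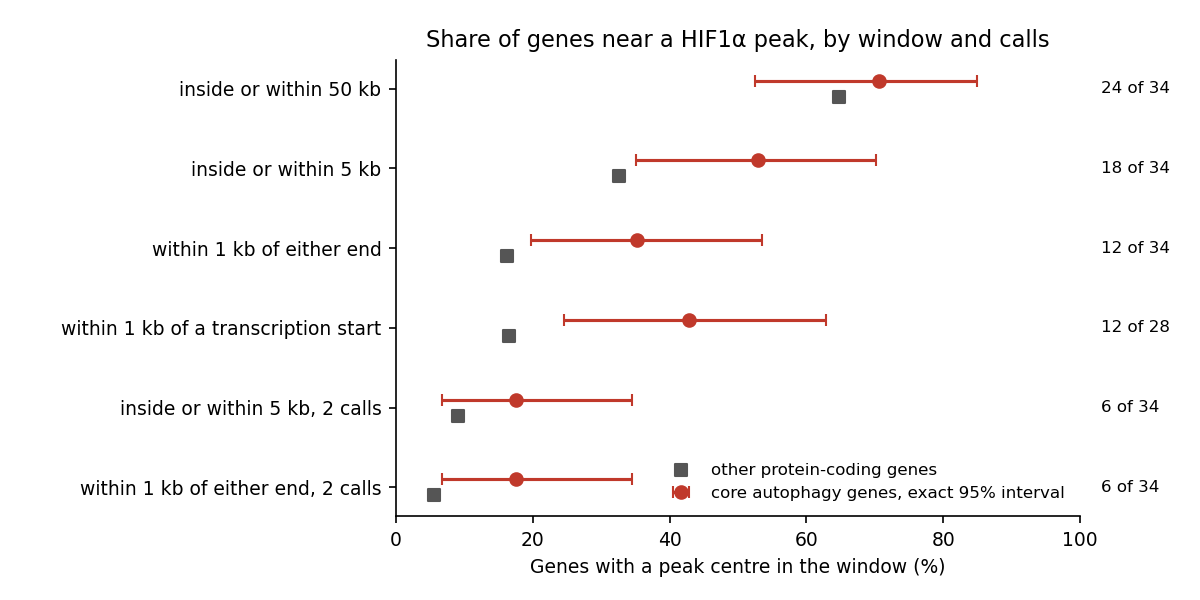
Share of genes (%) with a peak centre in each window, for the core autophagy genes (circles, bars are exact 95% intervals that cover counting error only) and the other protein-coding genes (squares). The shares lie apart at gene ends and starts and come together at 50 kb, where 24 of 34 genes (70.6%) stand beside a background of 64.8%.

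The 2-call peaks marked 6 genes: Atg2b, Atg9a, Atg9b, Map1lc3b, Gabarap and Sqstm1. This is 17.6% of the 34 (interval 6.76 to 34.5%), against 9.03% of other genes, a background inside the interval. All 6 had the peak within 1 kb of an end, where the background was 5.52%, just below the same interval. At 4 of them that peak also lay within 1 kb of an end of another gene. Of the genes with a known start, 5 of 28 (17.9%, interval 6.06 to 36.9%) had such a peak within 1 kb of it. The background there was 5.70% of other genes, just below the interval. These intervals cover counting error alone, and no difference was tested. The 6 genes belong to lipid transfer and ATG9, ATG8 proteins and cargo receptors. None of the 20 genes of the ULK complex, the PI3-kinase complex and the conjugation system was near a 2-call peak, which allows a share of up to 15.0%, a limit above the 9.03% of other genes, and this grouping of steps was made after the values were seen.

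In the ULK complex, which senses nutrient and energy signals, only Ulk2 was near a peak. Ulk2 encodes a kinase closely related to ULK1, and its 1-call peak scored 4 and lay 35 bp upstream of the transcription start (chr11:61855077-61855177). That start is internal, and the peak centre lies inside the annotated gene, 207 bp from its nearer end. A second 1-call peak, with a score of 2, lay deep inside Ulk2, 29.4 kb from its nearer end. The nearest peak to Ulk1 itself was 47.1 kb away. Atg13, which encodes the adaptor of the complex, had a 2-call peak with a score of 3 at 19.5 kb. The centre of that peak lies 45 bp upstream of the transcription start of Ambra1, a gene for a Beclin 1 partner. Rb1cc1, which encodes the scaffold FIP200, had no peak within 50 kb, and its nearest was at 125 kb.

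In the PI3-kinase complex, peaks lay at the regulatory subunit gene Atg14 and inside the genes Pik3c3 and Uvrag. Atg14 encodes the subunit that directs the kinase to autophagosome formation, and its 1-call peak scored 3 with the centre 51 bp downstream of the start. Pik3c3, which encodes the lipid kinase VPS34, held 3 peaks, each of 1 call and a score of 3, at 6.87, 7.13 and 39.1 kb from its nearer end. Uvrag, which encodes the subunit of the endosomal form of the complex, held a single peak of score 3 at 64.5 kb from an end. These 2 genes are long (82.5 and 254 kb) and had no peak within 1 kb of an end. Becn1, for the scaffold Beclin 1, had its nearest peak at 92.9 kb, and Pik3r4, for the VPS15 subunit, at 12.8 kb.

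Genes of membrane growth carried the highest scores of the set. Atg9a encodes the scramblase of ATG9 vesicles, and its 2-call peak (chr1:75192289-75192398) scored 11, a score reached by 8.25% of 2-call peaks. The peak centre lay 333 bp upstream of the Atg9a start. It also lay inside the divergent neighbour Ankzf1, 183 bp from the start of that gene, so it was closer to Ankzf1 than to Atg9a. Atg2b, which encodes a lipid transfer protein, had a 2-call peak (chr12:105685187-105685335) with a score of 7, centred 20 bp upstream of its start. That start is internal, and the peak centre lies inside the annotated gene, 36 bp from its nearer end. The peak region faces the gene Gskip on the other side, whose end is 91 bp from the peak centre. Wipi1 had a 1-call peak with a score of 5, centred 116 bp downstream of its start, a score that 2.47% of 1-call peaks reach. Atg9b had a 2-call peak (chr5:24383502-24383604) with a score of 5, but at its 3' end: the centre lay 628 bp beyond the gene, 8590 bp from its start and inside Nos3, the endothelial nitric oxide synthase gene. For the paralog genes Atg2a and Wipi2 the nearest peak was 14.3 and 72.0 kb away.

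The plot of peak scores along the 6 loci shows these positions. In 5 of the 6 the nearest peak lay within 1 kb of the transcription start, and Atg9b was the exception.

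**Figure D2:**
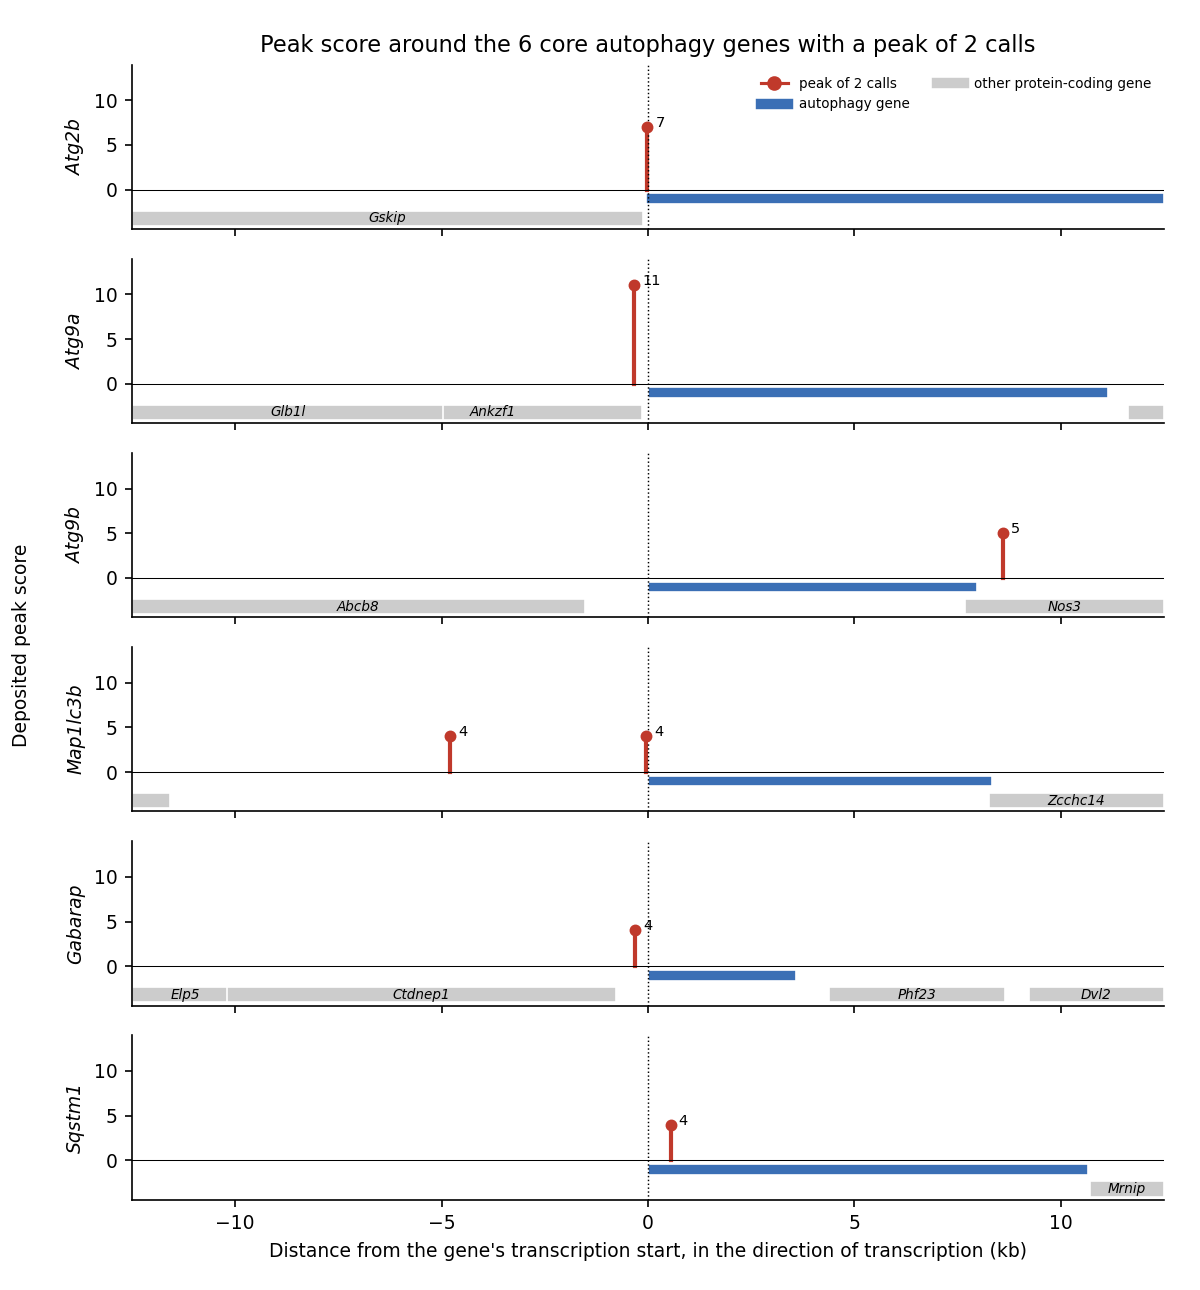
Score of each peak (vertical) against the distance of its centre from the transcription start in kb, along the direction of transcription, for the 6 core autophagy genes with a 2-call peak. Blue bars are the genes and grey bars other protein-coding genes; the nearest peaks of Atg2b, Atg9a, Map1lc3b, Gabarap and Sqstm1 lie within 546 bp of the start, Map1lc3b has a further one upstream, and that of Atg9b lies 8.59 kb downstream.

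Conjugation genes were near 1-call peaks alone. Atg4c and Atg4d encode proteases that process ATG8 proteins. The Atg4c peak scored 5 and was 4962 bp from the gene end, yet only 26 bp upstream of an internal transcription start (chr4:99194071-99194171). The Atg4d peak scored 4 and was 116 bp downstream of the start. Atg10, whose product is an E2-like enzyme for ATG12, had 4 peaks inside its 289 kb, each of 1 call. The first of them scored 4 and lay 300 bp downstream of a start, and the others scored 2 or 3 and lay 46.6 kb or more from an end. Atg3, the E2-like enzyme gene for ATG8, held a peak of score 3 at 6.16 kb from its nearer end. The genes of the other conjugation enzymes and of the ATG16L1 complex, namely Atg5, Atg7, Atg12, Atg16l1 and Atg16l2, had their nearest peaks at 77.5, 14.6, 20.4, 216 and 72.2 kb. For the proteases Atg4a and Atg4b the distance was 253 and 68.4 kb, and Atg4a lies on chromosome X.

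The ATG8 family was split. Map1lc3b encodes LC3B, the lipidated protein most used to mark autophagosomes, and it was the only one of the 34 genes with 2 peaks that were each merged from 2 calls. Both scored 4, a score that 53.9% of 2-call peaks do not exceed. One lay 44 bp upstream of its start (chr8:121590340-121590449) and the other 4802 bp upstream (chr8:121585581-121585691). Gabarap had a 2-call peak (chr11:69990997-69991118) with a score of 4, centred 313 bp upstream of its start and 456 bp from the end of the neighbour Ctdnep1. Map1lc3a, which encodes LC3A, had a 1-call peak with the lowest score of 2, 948 bp from an end. Gabarapl1 and Gabarapl2 had no peak within 50 kb, with nearest peaks at 166 and 58.7 kb.

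All 3 cargo receptor genes were near a peak. Sqstm1 encodes p62, a receptor for ubiquitinated cargo, and carried a 2-call peak (chr11:50210209-50210339) with a score of 4, centred 546 bp downstream of its start. Nbr1, for a related receptor, had a 1-call peak with a score of 4, 307 bp downstream of a start. Optn, for the receptor optineurin, held a 1-call peak with a score of 2, deep inside the gene at 20.7 kb from its nearer end. At the 1 kb line used for gene ends, the member just inside was Map1lc3a (948 bp) and the one just outside was Atg10 (1038 bp).

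Most scores of the list are low, with 56.0% of all peaks at the minimum of 2. Of the 25 peaks inside the 34 genes or within 5 kb, 7 were of 2 calls with scores from 4 to 11. The other 18 were of 1 call with scores from 2 to 5. The 2-call peaks had a median of 4, the same as all 2-call peaks of the list. For the 1-call peaks the median was 3, against 2 for all 1-call peaks, and this difference was not tested. The median of the highest score per gene was 4 over the 18 genes near a peak and 3 over other genes near a peak. Neighbours can share a peak: at 4 of the 12 genes with a peak at an end, that peak also lay within 1 kb of an end of another gene. This held for 27.2% of 3527 other genes with such a peak. The autophagy genes concerned were Atg2b, Atg9a, Atg9b and Gabarap, all among the 6 genes with a 2-call peak. For other genes the share was not computed for 2-call peaks alone. Of the 6 genes with a peak between 5 and 50 kb alone, 4 had the nearest one closer to an end of another gene than to their own. The nearest peak to Atg12, not among these 4, lay inside the gene Ap3s1. The share for other protein-coding genes was not computed. Which gene such a peak acts on was not tested.

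Promoter sequences were compared with the letters that HIF1α is known to prefer, ACGTG or GCGTG on either strand, which lie within its response element. RefSeq windows from 250 bases before a start to 50 from it (GRCm38.p6, the build of mm10) were at hand for 28 of the 34 genes, in 31 windows. ACGTG was found in 13 of the 31 windows and in 20.8% of 21232 windows of other genes. GCGTG was found in 18 of the 31 and in 38.5% of other windows. Some starts have overlapping windows, and both words contain CG, which is frequent in many promoters. Most matches lay outside peaks: of 48 distinct matches, 6 were covered by a peak, and these 6 lay in 3 genes. A peak overlapped the windows of 5 of the 28 genes, namely Ulk2, Atg14, Atg2b, Atg4c and Map1lc3b. Neither share was computed for the windows of other genes, so these counts have no background. The share of peaks that hold the letters is a different measure. Of the 1324 peaks whose central 101 bp lie in a promoter window of any gene, 27.0% hold ACGTG there. The share is 42.3% among 2-call peaks and 17.5% among 1-call peaks. GCGTG is held by 32.1% of the 1324 peaks, with 36.6% among 2-call and 29.4% among 1-call peaks.

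The sequences below come from the promoter windows in which a peak fully covers HIF letters. They are written 5′ to 3′ on the strand of the gene, with ACGTG and GCGTG of either strand in capitals. Peaks outside these windows, including the 2-call peaks of Atg9a, Atg9b, Gabarap and Sqstm1, were not read for these letters. For Map1lc3b the part of the peak upstream of the gene is shown (chr8:121590340-121590437, plus strand), and it holds 3 matches to GCGTG, of which the nearest to the peak centre is 18 bp away. For Atg2b the 30 bases are chr12:105685249-105685278 (minus strand), and the middle of the ACGTG match is 2 bp from the peak centre. A GCGTG match under the same Atg2b peak, 35 bp from its centre, lies outside the bases shown. For Atg4c they are chr4:99194132-99194161 (plus strand), with ACGTG on the opposite strand, 25 bp from the peak centre.
Map1lc3b: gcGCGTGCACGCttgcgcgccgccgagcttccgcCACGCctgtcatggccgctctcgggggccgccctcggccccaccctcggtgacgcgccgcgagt
Atg2b: ccgttgctcgagtACGTGccgggagtctgg
Atg4c: ggccgcgggccgCACGTcctgcggtgcgta

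The E-box CACGTG contains ACGTG on both strands and is also the core of the element read by TFEB, a regulator of lysosome and autophagy genes. It was found in 4 of the 31 windows, those of Atg14, Atg3, Atg5 and Atg7, and in 7.83% of other windows. The longer TFEB element, this E-box with GT before and AC after it, was found in none of the 31 windows and in 0.419% of others. TGACNNNGC, the core of the antioxidant response element, was found in 3 of the 31 windows, those of Atg13, Map1lc3b and Ulk2, and in 13.0% of others. The Ulk2 match lies under its 1-call peak, 22 bp from the peak centre, and those of Atg13 and Map1lc3b are not fully covered by a peak. Of 1-call peaks with their central 101 bp in a promoter window, 4.38% hold TGACNNNGC there. The E-box windows are shown because their letters did not always go with a peak. The Atg14 E-box straddles the edge of its peak, so it coincides with that peak in part. No peak overlaps the windows of the other 3 genes. They are chr14:47568418-47568447 (minus strand) for Atg14, chr16:45158735-45158764 (plus) for Atg3, which has 2 E-boxes, chr10:44268313-44268342 (plus) for Atg5 and chr6:114670952-114670981 (plus) for Atg7, with the E-box in capitals.
Atg14: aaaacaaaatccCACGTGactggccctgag
Atg3: CACGTGtcctgggagagtcgagtCACGTGa
Atg5: cggagcgcttgcCACGTGgtcttggtgacg
Atg7: catattggtggtCACGTGtgcagtaagtga

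Peaks also lay at genes that act beside the core machinery, and distances here run to the nearer gene end. Of 30 further genes for cofactors, cargo receptors, lysosomal fusion and transcriptional regulators, 14 were near a peak (46.7%, interval 28.3 to 65.7%), with a 2-call peak at 5 of them (16.7% of the list), beside the backgrounds of 32.6% and 9.03% given above. The cargo receptor gene Calcoco1 had a 1-call peak (score 2) at 13 bp. The genes for the Beclin 1 partners AMBRA1 and Rubicon, Ambra1 and Rubcn, had peaks of score 3 at 45 bp and score 5 at 63 bp, with 2 calls at Ambra1. Rab7, the late endosome GTPase gene, had a 2-call peak with a score of 6 at 83 bp. Snap29, for a fusion protein, had a 1-call peak with a score of 4 at 84 bp, and Lamp1, for a lysosomal membrane protein, a 2-call peak (score 4) at 87 bp. Foxo3, for a stress-activated transcription factor, had a 2-call peak with a score of 8 at 102 bp, and Tollip a 1-call peak (score 3) at 235 bp. The TFEB gene itself, Tfeb, had its nearest peak at 42.0 kb.

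The median of the highest score per gene near a peak was 4 in the core machinery, 6.5 in mitophagy genes, 5 in mTORC1 and AMPK genes and 27.5 in known HIF targets, and these differences were not tested. Among 8 genes for mitophagy receptors and the PINK1-Parkin pathway, 6 were near a peak (75.0%, background 32.6%) and 4 near a 2-call peak (50.0%, background 9.03%). These 4 were Bnip3, Bnip3l, Fkbp8 and Phb2, and their highest scores were 36, 18, 7 and 6. The nearest peaks of Pink1 (score 3, 39 bp) and Fkbp8 (score 4, 135 bp) were of 1 call, and the 2-call peak of Fkbp8 lay 4.21 kb from its nearer end. Of 20 genes for the ULK1-regulating kinases mTORC1 and AMPK and for their regulators, 11 were near a peak and 8 near a 2-call peak, beside the same backgrounds of 32.6% and 9.03%, with the highest score of 19 at Ddit4, an mTORC1 inhibitor gene. The closest peaks of this list were at Rptor (score 6, 15 bp), Akt1s1 (score 6, 24 bp), Stk11 (score 4, 25 bp) and Mlst8 (score 4, 61 bp). Those of Akt1s1 and Stk11 were of 2 calls, and those of Rptor and Mlst8 of 1 call. Rptor had no 2-call peak inside it or within 5 kb. The 12 known HIF targets used as controls were also chosen with earlier results of these data known, so they are no independent benchmark. All 12, Bnip3 among them, were near a 2-call peak (background 9.03%), and 11 of them reached a score of 10 or more. In the core machinery 1 of the 18 genes near a peak, Atg9a, did so (5.56%), and among other genes near a peak the share was 2.89%.

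**Figure D3:**
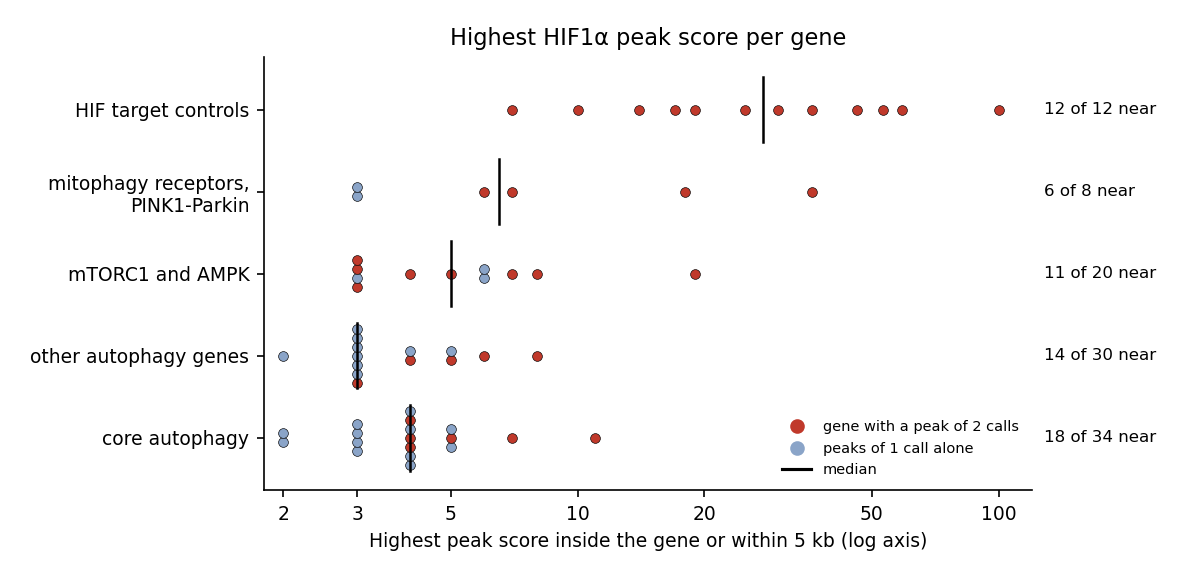
Highest peak score inside the gene or within 5 kb (log axis) for each gene near a peak, by gene list, with the number near at the right; red points are genes with a 2-call peak, blue points have 1-call peaks alone, and the black line is the median. Core autophagy genes lie between 2 and 11 with a median of 4, and the HIF target controls between 7 and 100 with a median of 27.5. The lists were chosen with earlier results of these data known.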

How the data were processed

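Hearts were cross-linked in 1.5% formaldehyde for 10 minutes and chromatin was sheared to about 200 bp, per the labels' protocols. The submitters' processing notes name Bowtie2, HOMER and mm10, with no versions. The authors called peaks of each pulldown against the 1 input and merged them, per the file headers. The header names 10 columns and the rows hold 6, so the value in the fifth was taken as the deposited score; it is a whole number whose scale is not given, and it ranks peaks within this list alone. The last number of a peak name was read as its number of calls, and all 15300 1-call peaks are 101 bp wide. Neither the calling threshold nor the merging rule is given in the sources.

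Genes came from RefSeq (GRCm38.p6), where all 34 symbols matched. Except on Y, genes starting below 3 Mb were treated as unplaced and dropped. Distances run from the peak centre, and starts and strands came from the RefSeq promoter table. Exons, introns and UTRs were not resolved. Shares have exact 95% Clopper-Pearson intervals (scipy 1.17.1), which cover counting error alone; genes are not replicates and no set test was run. A share of 0 is given with the limit that 3 counts allow. The counting was tested on simulated peaks placed at known distances. Genes and lists were chosen with earlier results of these data known. All 34 genes were described. Of the further lists, up to 8 pathway genes and up to 4 genes of each comparison list were named by closeness to a peak, and Tfeb, Phb2 and Ddit4 were added after their values were seen.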

Additional observations from a re-analysis of the deposited data

How the results depend on the processing

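Of 44 values under other settings, 35 stayed within 1.5 times the main one. This tally compares the autophagy values alone and leaves out the background, which moved with the setting, so it does not measure whether the contrast with other genes held. The count of core autophagy genes near a peak was 18 of 34 (background 32.6%). With peaks of any call it ranged from 12 of 34 at scores of at least 4 (background 12.0%) to 24 of 34 at 50 kb (background 64.8%). At transcription starts it was 12 of 28 (background 20.4%). With 2-call peaks alone, the count near a peak and the count at a gene end both came to 6, and the median distance rose to 186 kb, against 270 kb for other genes. The count near a 2-call peak fell from 6 to 2 of 34 when the peak had to lie inside the gene (other genes 4.84%), a share near the background, and to 4 when each peak counted for its nearest gene alone (7.16%). The 14 of 30 other pathway genes became 22 at 50 kb (other genes 64.8%), 7 inside genes (21.0%), 6 at scores of at least 4 (12.0%), 9 of 25 at transcription starts (20.4%) and 5 with 2-call peaks (9.03%), and the first 2 counts are near the background; fewer peaks or genes enter all of these except the first. Leaving out a pulldown could not be run, since the merged list does not mark which one gave a call. No paired analysis was possible because the result comes from no test and the list holds no value per replicate.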
